A study of Mus musculus with 6 samples.

Results

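B cells are the lymphocytes that make antibodies. They recognise antigen through a surface receptor whose signalling chains are the products of Cd79a and Cd79b, and they present peptides of that antigen to T cells on major histocompatibility complex (MHC) class II molecules. In lymphoid follicles an activated B cell can enter a germinal centre, where it divides and its antibody genes are refined. In tumours, B cells occur scattered or in lymphoid aggregates.

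Tumours of 4T1, a mouse mammary carcinoma line, were grown in Balb/c mice, dissociated, and profiled by Drop-seq, in which cells are caught in droplets and every transcript receives a barcode for its cell and a unique molecular identifier (UMI) for itself. FVIO-MHT tumours (3 libraries) received FVIOs, iron oxide nanorings, at 0.1 mg per cm3 of tumour, then 10 min of an alternating field at 365 kHz, and were taken after 24 hours. PBS tumours (3 libraries), taken at the same time, are labelled only by that treatment. The 6 libraries share 1 protocol text, which leaves unsaid whether the field was also applied to PBS tumours, how old the mice were and whether replicates were separate mice, so a p-value here measures only the spread between these libraries. The labels call the cells murine breast cancer cells, and the tissue also held the immune cells described here.

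The B cells were chosen by a rule on 7 genes of the B lineage, so the values of those genes are a description and not a finding. A barcode with at least 100 detected genes was taken when the UMIs of Cd79a, Cd79b, Ms4a1, Pax5, Bank1, Fcer2a and Tnfrsf13c summed to at least 2, those of the T cell genes Cd3e, Cd3d and Cd3g to 0, and those of the macrophage genes C1qa, C1qb and C1qc and of the epithelial genes Krt8, Krt18 and Epcam each to at most 1. The rule took 153 of 14594 barcodes.

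The B cells were nearly all in 1 library. In FVIO-MHT replicates 1, 2 and 3 they numbered 0 of 1577, 1 of 2636 and 0 of 4678 barcodes. In PBS replicates 1, 2 and 3 they numbered 151 of 2955, 0 of 1977 and 1 of 771 barcodes. The share was thus 5.11% in PBS replicate 1 (95% Clopper-Pearson interval 4.34 to 5.97%), while the 0 cells of FVIO-MHT replicate 1, FVIO-MHT replicate 3 and PBS replicate 2 allow shares of up to 0.190, 0.0641 and 0.152% (3 counts of the total). These intervals and floors, and those below, cover counting error only. In FVIO-MHT replicate 1 the T cell, macrophage and tumour epithelial classes defined below also numbered 0 barcodes each. Its 0 B cells are thus not particular to B cells, and its floor is not read as a limit for that tumour. Mean shares were 0.0126 ± 0.0219% in FVIO-MHT and 1.75 ± 2.91% in PBS tumours (SD, n = 3 each), a difference of -1.73 percentage points that did not exceed the spread between libraries (two-sided exact permutation test, p = 0.4, the smallest possible being 0.1). FVIO-MHT replicate 1 enters these values as a share of 0. With it left out, the FVIO-MHT mean was 0.019% and the difference -1.73 points (exact permutation p = 0.6). Without PBS replicate 1 the difference was -0.0522 points (exact permutation p = 0.8), so it rested on that library, and the results below describe cells and not a treatment effect.

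**Figure D1:**
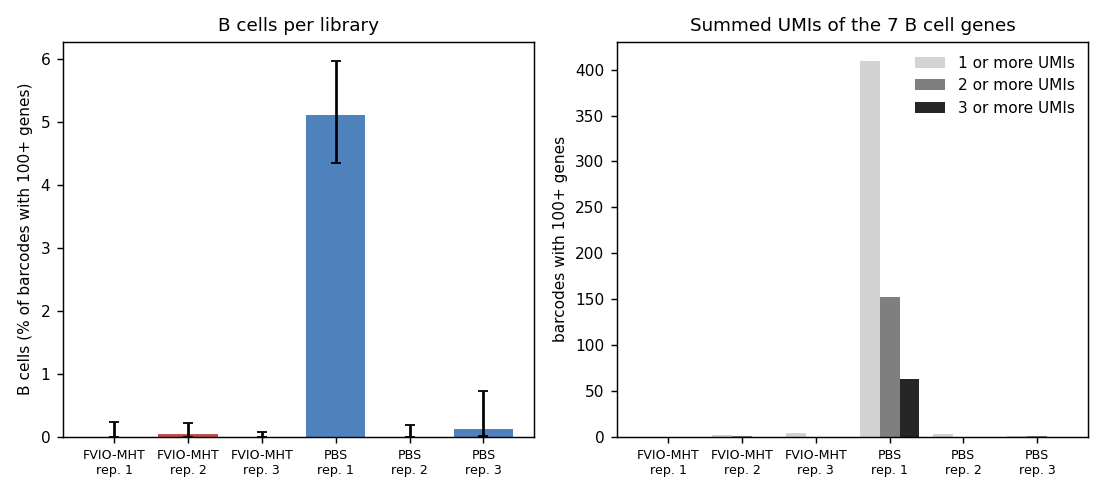
Left, B cells as a percentage of the barcodes with 100 or more detected genes in each library, with the 95% Clopper-Pearson interval as the error bar. Right, the number of such barcodes with at least 1, at least 2 and at least 3 summed UMIs of the 7 B cell genes, before the limits on other lineages: PBS replicate 1 holds 410, 152 and 63, and no other library holds more than 4 at any of these levels.

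Of 5 genes outside the rule that were followed across libraries, 1 was nearly confined to PBS replicate 1. Cd22, an inhibitory coreceptor of the B cell receptor, had 0, 1 and 2 UMIs in the barcodes of FVIO-MHT replicates 1 to 3 and 51, 1 and 0 in those of PBS replicates 1 to 3. Ebf1, a transcription factor of the B lineage that stromal cells also express, was less exclusive, with 1, 48 and 79 UMIs in FVIO-MHT and 131, 20 and 16 in PBS libraries. Genes that other cells also express were spread over more libraries. Cd37, a tetraspanin of mature lymphocytes, had 118, 66.5 and 7.36 CPM over all barcodes of FVIO-MHT and 101, 4.62 and 19.1 CPM over those of PBS replicates 1 to 3. Cd74, of the class II pathway, and Ly6d were both highest in PBS replicate 3, with 2854 and 185 CPM, against 2344 and 16.7 CPM in PBS replicate 1. Depth did not follow the order of the B cell shares: the barcodes summed to 474589, 1187547 and 2174876 UMIs in FVIO-MHT and 1200091, 1950112 and 523194 UMIs in PBS replicates 1 to 3. A further 127 barcodes of PBS replicate 1 with under 100 detected genes held a UMI of the 7 genes, against 0 to 2 in each other library. None of the 151 B cell barcodes of PBS replicate 1 occurred among the kept barcodes of another library. PBS replicates 2 and 3 shared 33 kept barcodes, against 0 to 2 for the other pairs of libraries, and what this overlap reflects was not tested. Fewer B cells and less RNA per B cell cannot be told apart in libraries where so few barcodes passed.

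The pair of B cells outside that library differed from each other. The barcode of FVIO-MHT replicate 2 had 566 UMIs and 380 genes, and it passed on 2 UMIs of Tnfrsf13c, the receptor for the survival factor BAFF. It also held 8 UMIs of Cd74, 12 of H2-Ab1, 5 of H2-Eb1 and 3 of H2-Aa, all of the class II pathway. The barcode of PBS replicate 3 had 159 UMIs and 131 genes and passed on 1 UMI each of Cd79b and Tnfrsf13c. It also held 2 UMIs of Cd37 and 1 each of Ebf1, Irf8 and H2-Eb1.

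The 151 B cells of PBS replicate 1 held 59103 UMIs, with a median of 250 UMIs (range 110 to 3710) and 200 genes per cell. They were set beside 3 other classes of the same library: 24 T cells (2 or more Cd3 UMIs; median 327 UMIs), 18 macrophages (3 or more C1q UMIs; median 877.5 UMIs) and 194 tumour epithelial cells (3 or more keratin and Epcam UMIs; median 1480 UMIs). A last comparator was the 2316 other barcodes with 0 UMIs of the 7 genes (median 190 UMIs), a mixture into which a B cell falls when none of the 7 genes was caught. Because these are cells of 1 library, there is no test between them. Levels are UMIs summed over a class, scaled to a class total of 1000000 UMIs (CPM), with exact Poisson 95% intervals, and a count under 3 is set to 3, over the class, when a fold is called.

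Among the 7 rule genes, Ms4a1, which encodes the surface protein CD20, had 128 UMIs in 72 of the 151 cells. Bank1, a receptor adaptor, had 94 UMIs in 64 cells, and Pax5, the transcription factor that fixes B cell identity, had 67 UMIs in 53 cells. Tnfrsf13c had 53 UMIs in 37 cells, Cd79a 39 UMIs in 32 cells, Fcer2a, which encodes the IgE receptor CD23, 34 UMIs in 26 cells, and Cd79b 21 UMIs in 17 cells. Detection was sparse: 40 cells showed only 1 of the 7 genes, 82 showed 2, 19 showed 3 and 10 showed 4. The cells sat mostly at the threshold, with exactly 2 summed UMIs in 89 cells and 3 or more in 62. The promoter of Cd79a is shown because it is the receptor chain among the rule genes for which a promoter was at hand, from 250 bases before to 49 after the transcription start (RefSeq, GRCm38.p6, chr7:24897247-24897546, plus strand). Capitals mark CAGGTG, an E-box, the kind of site that the B lineage factor E2A binds.

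Cd79a promoter: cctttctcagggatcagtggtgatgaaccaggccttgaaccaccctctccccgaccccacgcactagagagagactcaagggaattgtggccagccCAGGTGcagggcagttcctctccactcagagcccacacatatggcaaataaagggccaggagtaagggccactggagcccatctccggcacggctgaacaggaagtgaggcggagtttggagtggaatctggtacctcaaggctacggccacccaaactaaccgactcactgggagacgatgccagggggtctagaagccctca

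Searched on both strands, CAGGTG occurred in 4 of the 7 promoters of the 5 rule genes that matched (Bank1, Cd79a, Fcer2a and Tnfrsf13c), and in 20.2% of all 32851 promoters of the same length. ATGCAAAT, the octamer of immunoglobulin promoters, occurred in 0 of these 7 promoters and in 1.74% of all.

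Barcodes just outside the threshold carried much of the same transcript content. The 4 class II genes Cd74, H2-Ab1, H2-Aa and H2-Eb1 together stood at 17434 CPM (16060.2 to 18894) in the 62 barcodes with 3 or more summed UMIs, at 19655 CPM (17956 to 21471) in the 89 with 2, and at 18973 CPM (17898 to 20095) in the 245 with 1, all under the same limits on other lineages. In the 2125 barcodes with 0 they stood at 5624 CPM (5435 to 5818). Mef2c, a transcription factor of mature B cells, had 1849, 1238 and 1011 CPM in the barcodes with 3 or more, 2 and 1 summed UMIs, against 187 CPM in those with 0. Cd22 had 264, 159.8 and 131 CPM, against 48.8 CPM at 0. The neutrophil transcripts S100a8 and S100a9 ran the other way, with 763, 2317, 6297 and 10278 CPM in the same order.

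**Figure D2:**
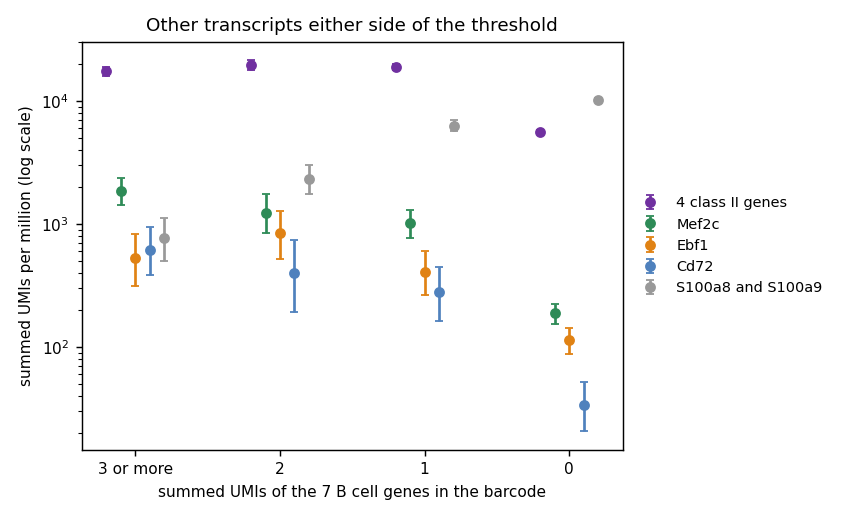
Summed UMIs in CPM (log scale) in barcodes of PBS replicate 1 by their summed UMIs of the 7 B cell genes, for the 4 class II genes together, Mef2c, Ebf1, Cd72, and S100a8 with S100a9; bars are exact Poisson 95% intervals. The class II level is about 17434 to 19655 from 3 or more down to 1 UMI and 5624 at 0, while S100a8 with S100a9 is lowest at 3 or more UMIs.

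The label B cells was checked against genes outside the rule. Cd22 (13 UMIs, 220 CPM, 117 to 376) and Ebf1 (39 UMIs, 659.9 CPM, 469 to 902) were present in the B cells, while the T cells and macrophages held 0 UMIs of both. In T cells 0 UMIs allow up to 298 CPM, which is above the Cd22 level in B cells. Cd37 had 20 UMIs in B cells and 1 in T cells. Ly6d had 0 UMIs in B cells, and the immunoglobulin chain genes are not analysed here. Genes that most cells use were also near 0 in these libraries: Hspa8, a constitutive chaperone, had 2 UMIs in B cells and 36 in the 337068 UMIs of tumour epithelial cells. A low count is therefore not read as absence.

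Markers of other lineages that the rule did not limit held few UMIs in the B cells, apart from neutrophil transcripts and Apoe. Of the 5 macrophage markers besides C1q, 4 were at 0, Csf1r and Lyz2 among them, and Apoe, a lipid carrier, had 24 UMIs in 18 cells, with at most 3 per cell. The 7 T cell genes besides Cd3 held 12 UMIs, the epithelial genes Cldn4 and Krt7 held 1 and 0, the conventional dendritic list 2, the plasmacytoid dendritic list 22 with Siglech and Ccr9 at 0, and the natural killer, mast and erythroid lists 0. S100a8 and S100a9 held 84 UMIs, or 1421 CPM (1134 to 1759.6), against 161 CPM in T cells, 161 CPM in macrophages and 8693 CPM in the other barcodes. These UMIs lay in 17 of the 151 cells, 3 of which had 5 or more. Without those 17 cells the 4 class II genes stood at 19247 CPM, against 18375 CPM in all 151.

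Outside the rule, the genes with the highest ratios over T cells were those of the class II pathway. Against the other barcodes Cd72, Mef2c, H2-DMb2, Ebf1, Cd83, Dmxl1 and Ezh2 ranked above Cd74, among genes with at least 30 UMIs in B cells. Summed over Cd74, H2-Ab1, H2-Aa and H2-Eb1, B cells had 1086 UMIs (18375 CPM, 17298 to 19501) and T cells had 3 UMIs (242 CPM, 49.9 to 707), a ratio of 75.9 (25.9 to 369). Macrophages, the other antigen-presenting class, had 298 UMIs (16029 CPM, 14261 to 17956), so that the ratio of B cells to macrophages was 1.15 (1.01 to 1.31). The ratio to tumour epithelial cells was 8.03 (7.32 to 8.82) and that to other barcodes 3.59 (3.35 to 3.84). At least 1 of these UMIs was found in 149 of the 151 B cells, with a median of 6 and a maximum of 46 per cell.

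By gene, Cd74, the invariant chain that escorts class II molecules, had 7343 CPM in B cells (6668 to 8068), against 80.7 CPM in T cells, 6509 CPM in macrophages, 1127 CPM in tumour epithelial cells and 1979 CPM in other barcodes. A Cd74 UMI was seen in 86.1% of B cells and 4.17% of T cells, or in 70.1% and 4.76% after each cell was thinned to 200 UMIs. The thinning used 97 B cells and 21 T cells and left out 54 and 3 shallower ones. H2-Ab1, a class II beta chain (chromosome 17, 34257689 to 34269419, GRCm38), had 5787 CPM in B cells, against 80.7 in T cells and 4679.7 in macrophages. H2-Aa, the partner alpha chain, had 3299 CPM in B cells, against 80.7 in T cells and 2797 in macrophages. H2-Eb1, a second beta chain, had 1946 CPM in B cells, 0 UMIs in T cells and 2044 CPM in macrophages. T cells were the low class for each of these genes, and B cells and macrophages were close.

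Of the genes that load peptides onto class II, H2-DMb2 was higher in B cells than in macrophages. H2-DMb1 and H2-DMa lay the other way, on few UMIs. H2-DMb2, a chain of the H2-M peptide exchanger, had 795 CPM in B cells (47 UMIs, 584 to 1057), 0 UMIs in T cells and 161 CPM in macrophages (3 UMIs), a ratio to macrophages of 4.93 (1.59 to 24.8). H2-DMb1, its neighbour, had 305 CPM in B cells (18 UMIs) and 699 CPM in macrophages (13 UMIs), and H2-DMa, the partner chain, 152 CPM in B cells (9 UMIs) and 430.3 CPM in macrophages (8 UMIs). H2-DMb1 and H2-DMb2 are close paralogs, so reads could be split between them. H2-Oa and H2-Ob, whose product H2-O restrains H2-M in B cells, together had 17 UMIs in B cells (288 CPM), 1 UMI in T cells and 0 UMIs in macrophages. Ciita, the class II transactivator, had 3 UMIs in B cells and 0 in both T cells and macrophages, counts too small to compare.

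The promoters of 4 class II genes are shown as examples, each of a gene at least 2-fold higher in B cells than in other barcodes. Each runs from 110 bases before to 9 after the transcription start (RefSeq, GRCm38.p6), at chr17:34287814-34287933 on the minus strand for H2-Aa, and on the plus strand at chr17:34305757-34305876 for H2-Eb1, chr17:34145139-34145258 for H2-DMb2 and chr17:34238795-34238914 for H2-Ob. Capitals mark CCAAT, or ATTGG where it lies on the opposite strand, the letters at the core of the Y box of class II promoters. Not every match is that box, and H2-Eb1 has a second one at -35.

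H2-Aa promoter: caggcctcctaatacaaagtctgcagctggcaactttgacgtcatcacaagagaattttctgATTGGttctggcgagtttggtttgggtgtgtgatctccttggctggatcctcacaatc

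H2-Eb1 promoter: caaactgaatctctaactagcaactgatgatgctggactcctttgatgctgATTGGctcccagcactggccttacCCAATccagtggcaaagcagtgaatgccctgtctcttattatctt

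H2-DMb2 promoter: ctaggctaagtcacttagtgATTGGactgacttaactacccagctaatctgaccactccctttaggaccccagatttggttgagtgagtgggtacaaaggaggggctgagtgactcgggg

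H2-Ob promoter: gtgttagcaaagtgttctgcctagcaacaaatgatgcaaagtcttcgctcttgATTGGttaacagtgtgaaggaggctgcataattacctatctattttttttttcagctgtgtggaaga

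Searched on both strands in windows of 300 bases, CCAAT occurred in 7 of the 8 promoters of the 7 class II genes that matched, and in 37.4% of all promoters. In H2-Aa, H2-Eb1, H2-Ob and H2-DMb2 the first or only match began at positions -48, -59, -57 and -90 from the start. CAGGTG occurred in 1 of the 8 promoters and ATGCAAAT in 0. A match is a description of letters and not a site shown to be used.

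Against T cells, 80 of 659 genes with 20 or more UMIs over both classes were at least 2-fold higher in B cells (12.1%) and 58 were at least 2-fold lower (8.80%), with a median log2 ratio of 0.15. With median-of-ratios scaling, whose factor was -0.29 on the log2 scale, so that every ratio was higher by that size, the split was 138 higher and 29 lower. Against the other barcodes, 794 of 5899 genes were higher in B cells (13.5%) and 508 lower (8.61%), with a median of 0.31. All 5 class II genes that could be tested were higher than in T cells (median log2 3.77), and 7 of 8 were higher than in other barcodes (median 1.85). The 24 T cells bounded what could be seen, since a gene absent from them needed 29 UMIs in B cells to reach the fold.

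Transcription factors of the B lineage were high relative to the mixture. Of 12 tested against other barcodes 9 were higher and 0 lower (median log2 1.73), and of 5 tested against T cells 2 were higher and 2 lower (median 0.75). Over all genes 13.5% were higher and 8.61% lower than in other barcodes, and 12.1% and 8.80% than in T cells. Mef2c had 94 UMIs in 49 B cells, or 1590.4 CPM (1285 to 1946), against 161 CPM in T cells (2 UMIs), 161 CPM in macrophages (3 UMIs) and 162 CPM in other barcodes. Its ratio to macrophages was 9.86 (3.27 to 48.7) and that to other barcodes 9.79 (7.37 to 13.0). A Mef2c UMI was seen in 19.6% of thinned B cells, against 4.76% of thinned T cells and 2.62% of thinned other barcodes. Ebf1, which had 0 UMIs in T cells, had a ratio of 2.73 to T cells with the floor, and its ratio to other barcodes was 6.97 (4.57 to 10.5). Foxp1, outside that list, a forkhead factor needed in early B cell development, had 1743 CPM in B cells (103 UMIs) and 565 CPM in T cells (7 UMIs), a ratio of 3.09 (1.45 to 7.87). Both factors below the T cell level are ones that T cells also use: Ets1 had 592 CPM in B cells and 1855 CPM in T cells, and Foxo1 254 CPM in B cells and 645 CPM in T cells.

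Surface and signalling molecules of the receptor pathway followed. Of 11 coreceptor and surface genes tested against other barcodes 7 were higher and 0 lower (median log2 2.22). Of 13 receptor signalling genes 8 were higher and 0 lower (median 1.62). The shares over all genes were 13.5% higher and 8.61% lower. Against T cells only 3 and 4 genes of these lists had enough UMIs, of which 1 in each was higher, against 12.1% of all genes. Against macrophages the summed surface list had a ratio of 1.21 (0.846 to 1.77) and the summed signalling list 1.39 (0.995 to 1.97). Both intervals include 1, so these lists as wholes did not set B cells apart from macrophages. Cd72, an inhibitory coreceptor, had 525 CPM in B cells (31 UMIs, 356 to 744), 0 UMIs in T cells, 108 CPM in macrophages and 31.1 CPM in other barcodes. Syk, the kinase that docks on the receptor chains, had 575 CPM in B cells, 0 UMIs in T cells and 215 CPM in macrophages. Btk, the next kinase, had 338 CPM in B cells (20 UMIs) and 0 UMIs in T cells, and Blnk, the adaptor that joins them, 254 CPM in B cells (15 UMIs) and 0 UMIs in both T cells and macrophages. Fewer UMIs came from Cr2, the complement receptor (8), Fcrl1 (7), Blk (8) and Fcmr (4), each with 0 UMIs in T cells and macrophages. Those classes held only 12398 and 18591 UMIs in all, against 59103 in B cells. Beside counts this small, 0 UMIs could also arise at equal levels. The low member was Cd53, a tetraspanin of all leukocytes, with 288 CPM in B cells and 807 CPM in T cells.

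**Figure D3:**
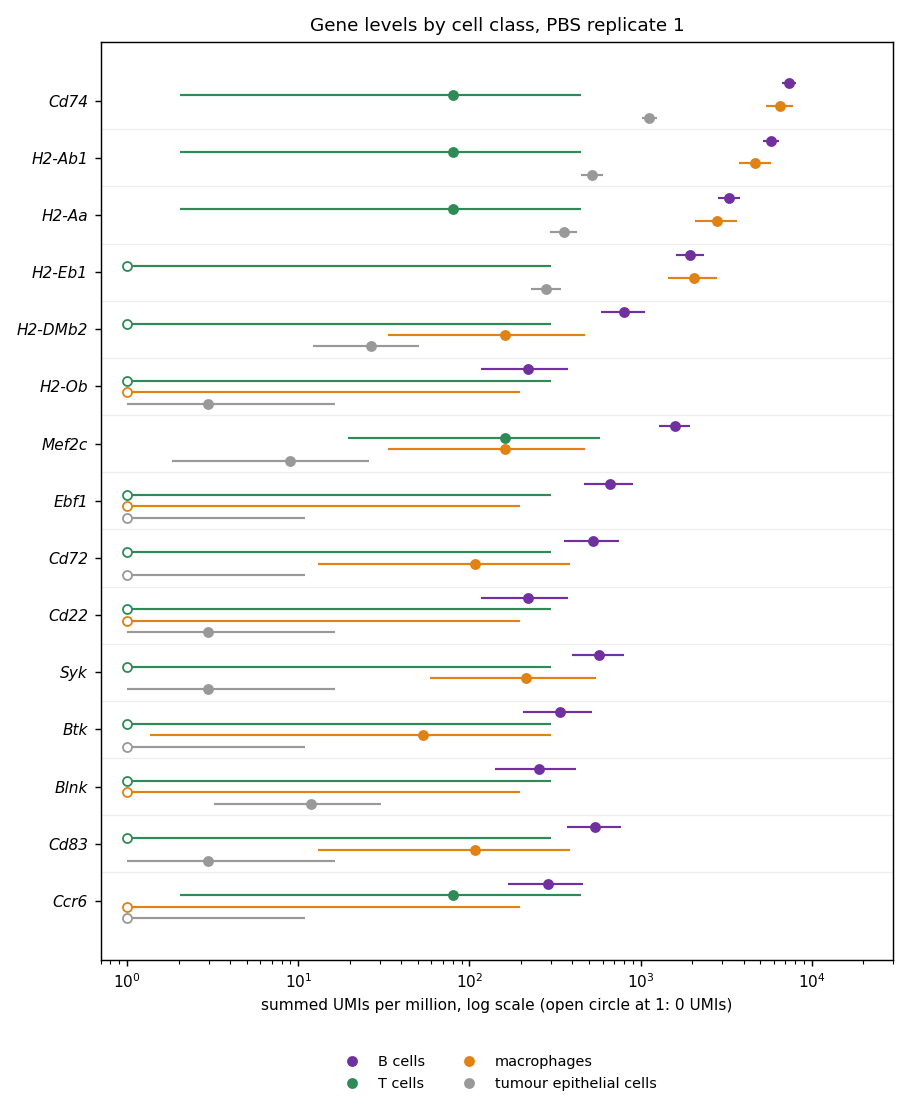
Summed UMIs in CPM (log scale) of 15 genes outside the rule in B cells, T cells, macrophages and tumour epithelial cells of PBS replicate 1; lines are exact Poisson 95% intervals and open circles mark 0 UMIs. B cells and macrophages lie together for Cd74, H2-Ab1, H2-Aa and H2-Eb1, and B cells lie above the other classes for Mef2c, Ebf1, Cd72 and H2-DMb2.

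Genes that guide B cells to and within lymphoid tissue had a median ratio near that of all genes. Of 12 homing genes 3 were higher than in other barcodes and 0 lower, against 13.5 and 8.61% of all genes. Their median log2 ratio was 0.27, against 0.31 over all genes, and of 3 tested against T cells 0 passed the fold either way. Ccr6, a chemokine receptor, stood out with 17 UMIs in 13 B cells (288 CPM), 1 UMI in T cells, 0 UMIs in macrophages and 11.3 CPM in other barcodes, a ratio to the last of 25.4 (10.4 to 68.1). Ccr7, the receptor that draws lymphocytes into T cell zones, had 457 CPM in B cells (27 UMIs in 24 cells), 807 CPM in T cells and 524 CPM in other barcodes. Cxcr5, the receptor for follicle entry, had 7 UMIs in B cells and 0 in T cells. The follicular naive list, which shares Ccr7 and Klf2 with the homing list, had 92 UMIs in B cells (1557 CPM, 1255 to 1909). It stood at 1855 CPM in T cells and 1253 CPM in other barcodes. Of 6 of its genes tested against other barcodes 2 were higher and 0 lower, against 13.5 and 8.61% of all genes (median log2 0.25, against 0.31). Lists of the other B cell states rested on fewer UMIs.

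Of 4 marginal zone genes tested against other barcodes 3 were higher and 1 lower (median log2 2.63). For this list and those that follow in this paragraph, the shares over all genes were 13.5% higher and 8.61% lower (median 0.31). The higher ones were Mzb1, an endoplasmic reticulum chaperone of antibody-making cells with 10 UMIs in B cells, Cr2 with 8 and Dtx1 with 7, and the lower one was Cd9 with 1, while Cd1d1 had 0. Of 5 plasma cell genes 3 were higher and 1 lower (median log2 1.31), and the list held 37 UMIs in B cells (626 CPM, 441 to 863), against 0 UMIs in T cells and 380 CPM in other barcodes. Jchain, the joining chain of secreted antibody, had 11 UMIs in 5 B cells, and Prdm1, the factor that drives plasma cell formation, had 0. Mzb1 is on both lists. Of 3 B1 genes 0 were higher and 1 lower, and Cd5 had 0 UMIs.

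Of 11 activation genes tested against T cells 5 were higher and 0 lower, against 12.1 and 8.80% of all genes (median log2 0.55, against 0.15 over all genes). Of 16 tested against other barcodes 3 were higher and 3 lower, numbers too small to set apart from the 13.5 and 8.61% of all genes (median -0.09, against 0.31 over all genes). Cd83, a surface protein of activated antigen-presenting cells, had 541 CPM in B cells (32 UMIs in 26 cells), 0 UMIs in T cells, 108 CPM in macrophages and 98.9 CPM in other barcodes. Cd86, a costimulatory ligand, had 271 CPM in B cells (16 UMIs), 80.7 CPM in T cells and 62.2 CPM in other barcodes. Nr4a1, which is induced by receptor signalling, had 558 CPM in B cells, 0 UMIs in T cells and 307 CPM in other barcodes. The immediate early gene Fos, in contrast, had 355 CPM in B cells, with its 21 UMIs in only 9 cells, against 4002 CPM in tumour epithelial cells and 1406 CPM in other barcodes. Egr1, another immediate early gene, had 1134 CPM in B cells, 0 UMIs in T cells and 1969.9 CPM in tumour epithelial cells.

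Type I interferon genes were lower in B cells than in the other barcodes. The 12 type I interferon genes together had 457 CPM in B cells (27 UMIs, 301 to 665), against 887 CPM in T cells, 1183 CPM in macrophages, 1276 CPM in tumour epithelial cells and 1861 CPM in other barcodes. The ratio of B cells to other barcodes was 0.246 (0.161 to 0.359), and of 10 genes tested 0 were higher and 5 lower, against 8.61% lower over all genes. The ratio to T cells was 0.515 (0.247 to 1.15), an interval that includes 1. Of 9 survival genes tested, 0 were higher and 3 lower than in other barcodes, against 13.5 and 8.61% of all genes. Their median log2 ratio was -0.72, against 0.31 over all genes. The survival list had 2352 CPM in B cells (1977 to 2777), against 2904 CPM in T cells, 4895 CPM in macrophages and 5637 CPM in other barcodes. Nfkbia, an inhibitor of NF-kB and a target of it, had 947 CPM in B cells, against 887 in T cells, 2743 in macrophages and 3398 in other barcodes. The 11 heat shock genes, a list chosen because the treatment warms the tumour, had 10795 CPM in these B cells of a PBS tumour, against 9034 CPM in T cells, 17314 CPM in tumour epithelial cells and 10378 CPM in other barcodes.

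The 20 genes with the highest ratio over T cells were led by Cd74, H2-Ab1, H2-Aa, H2-Eb1 and Mef2c, and also held H2-DMb2 and Foxp1. Most of the rest act in the nucleus of many cell types: Son and Rbm25 in splicing, Ddx21 in ribosome synthesis, Smc1a in cohesin, Matr3 and Tardbp in RNA binding, and Ezh2 as the histone methyltransferase of Polycomb. Of the 20, 15 were still at least 2-fold higher when T cells were taken at 1 Cd3 UMI, and 11 against other barcodes. Son, Matr3, Rbm25 and Gm10263, which was named by the same rule, were below that fold in both settings, with log2 ratios to other barcodes of 0.16 for Son and 0.22 for Rbm25. Rel, an NF-kB subunit of lymphocytes, had 48 UMIs in B cells and 3 in T cells, a ratio of 3.36 (1.08 to 16.8). Ezh2 had 40 UMIs in B cells and 1 in T cells, and its ratio to other barcodes was 4.94 (3.33 to 7.21). S100a9 was on this list through the few cells described above. The 10 lowest were led by Mcpt1, with 0 UMIs in B cells and 41 in T cells, all in a single barcode, and by Icos, the T cell costimulator, with 0 UMIs in B cells and 38 in T cells. Tmsb4x, which binds actin, had a ratio of 0.336 (0.261 to 0.434), and Srgn, a granule proteoglycan, 0.413 (0.264 to 0.658). The MHC class I genes H2-D1 and H2-K1 were lower in B cells than in T cells by less than 2-fold, with ratios of 0.568 (0.422 to 0.773) and 0.577 (0.381 to 0.894).

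Cell division genes were concentrated in a few B cells. Mki67, a marker of dividing cells, had 23 UMIs in 11 cells, and Top2a, the topoisomerase of dividing cells, 42 UMIs in 15 cells. Summed with Ccna2, Ccnb1, Cdk1 and Birc5, 132 of the 151 cells had 0 UMIs, 7 had 1, 3 had 2, and 9 had between 3 and 10. The 12 cells with 2 or more were set beside the other 139, a division chosen after these values had been seen. It is a range of a score and not a cell type, and 10 cells lie at 1 or 2 UMIs next to the limit. The 12 cells were deeper, with a median of 920 UMIs, against 229 UMIs in the 139, so the 22 of the 139 with 500 or more UMIs (median 664.5) are given as a second comparator. Of the 31 B cells with 500 or more UMIs, 9 were among the 12.

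**Figure D4:**
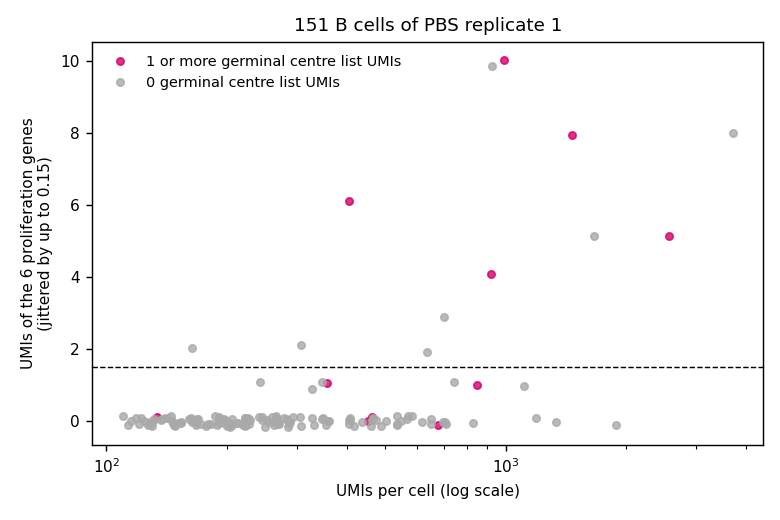
Each point is 1 of the 151 B cells of PBS replicate 1, by its UMIs in all (log scale) and its summed UMIs of 6 proliferation genes; the dashed line separates the 12 cells with 2 or more. Cells with a UMI of the germinal centre list are in pink, 5 of 11 of them above the line.

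Germinal centre transcripts lay partly in the same cells. The 7 genes of the list held 10 UMIs in the 12 cells (692 CPM, 332 to 1272), 9 UMIs in the 139 cells (202 CPM, 92.2 to 383) and 5 UMIs in the 22 deep cells (294 CPM, 95.4 to 686). The ratio was 3.43 (1.25 to 9.55) against the 139 cells and 2.36 (0.733 to 8.78) against the deep ones, an interval that includes 1. Of 11 B cells with any such UMI 5 were among the 12, and of 4 cells with 2 or more such UMIs 3 were. Rgs13, a regulator of chemokine signalling in germinal centres, had 6 UMIs in the 12 cells and 5 in the 139. In the library it had 11 UMIs in the 151 B cells, 3 in the barcodes with 1 summed UMI of the rule genes, 1 in the 2316 other barcodes, and 0 in T cells, macrophages and tumour epithelial cells. S1pr2, a receptor that holds B cells in the germinal centre, had 2 UMIs in the 12 cells and 2 in the 139. Bcl6, the master repressor of the germinal centre, had only 2 UMIs, and Fas, Mef2b and Gcsam had 0.

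Jchain had 10 UMIs in the 12 cells, from 4 of them, against 1 UMI in the 139 cells, the 22 deep ones included, a ratio of 30.9 (4.39 to 1340.4). Vpreb3, which assists assembly of the receptor, had 4 UMIs in 4 of the 12 cells and 0 in the 139, a ratio of 4.12 with the floor. The 22 deep cells, which held 17021 UMIs in all against 14455 in the 12, also had 0. The ratio of 4.12 rests on 4 UMIs and on the floor. Cenpe, a kinetochore motor, had 1384 CPM in the 12 cells and 112 CPM in the 139 (ratio 12.4, 4.50 to 42.1), and Tuba1b, a tubulin, 1868 CPM in the 12 and 202 CPM in the 139 (ratio 9.27, 4.23 to 22.4). Both also stood above the deep cells, with ratios of 5.89 (1.97 to 23.7) and 7.95 (2.77 to 31.3). Ezh2 had 21 UMIs in the 12 cells and 19 in the 139 (ratio 3.41, 1.75 to 6.71), and its ratio to the deep cells was 2.06 (0.968 to 4.59).

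Several genes, chosen after their values were seen, had lower levels in the 12 cells than in the 139, and fewer of them differed from the deep cells. Ccr7 had 0 UMIs in the 12 cells and 27 in the 139, a ratio of 0.343 with the floor, and 5 UMIs in the 22 deep cells, a difference under 2-fold with the floor. Klf2, a factor that keeps lymphocytes circulating, had 1 UMI in the 12 cells, 21 in the 139 and 2 in the deep cells, where both counts lie under the floor. Foxp1 had 623 CPM in the 12 cells, against 2105 CPM in the 139 (ratio 0.296, 0.131 to 0.586) and 1645 CPM in the deep cells (ratio 0.378, 0.157 to 0.825). Satb1, a chromatin organiser, had 346 CPM in the 12 cells, against 1679.8 CPM in the 139 (ratio 0.206) and 823 CPM in the deep cells (ratio 0.421, 0.119 to 1.24), an interval that includes 1. The 4 class II genes had 10377 CPM in the 12 cells, against 20964 CPM in the 139 (ratio 0.495, 0.414 to 0.589) and 15980.3 CPM in the deep cells (ratio 0.649, 0.528 to 0.796). Malat1, a nuclear noncoding RNA, had 6849 CPM in the 12 cells, against 25063 CPM in the 139 (ratio 0.273, 0.220 to 0.336) and 18565 CPM in the deep cells (ratio 0.369, 0.291 to 0.464). Neutrophil S100a8 and S100a9 moved with this division too, with 1 UMI in the 12 cells and 83 in the 139, and their part in these differences was not tested.

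Across all genes, 71 of 525 were at least 2-fold higher in the 12 cells (13.5%) and 101 at least 2-fold lower (19.2%). Among cells with 500 or more UMIs only, 34 of 234 genes were higher (14.5%), 25 of them among the 71, and 25 were lower (10.7%), 20 of them among the 101. Lower genes thus outnumbered higher ones over all cells, and higher ones outnumbered lower ones among deep cells. Of the lists, class II had 0 genes higher and 4 lower of 5 tested, and cell cycle genes outside the 6 had 2 higher of 2. Lineage transcription factors had 0 higher and 1 lower of 4, and Mef2c stood at 2075 CPM in the 12 cells and 1433 CPM in the 139, a ratio of 1.45 (0.906 to 2.27). The rule itself bears on levels here, since it asked for 2 UMIs at any depth: the 7 rule genes had 3736 CPM in the 12 cells, 8556 CPM in the 139 and 4818 CPM in the deep cells.

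**Figure D5:**
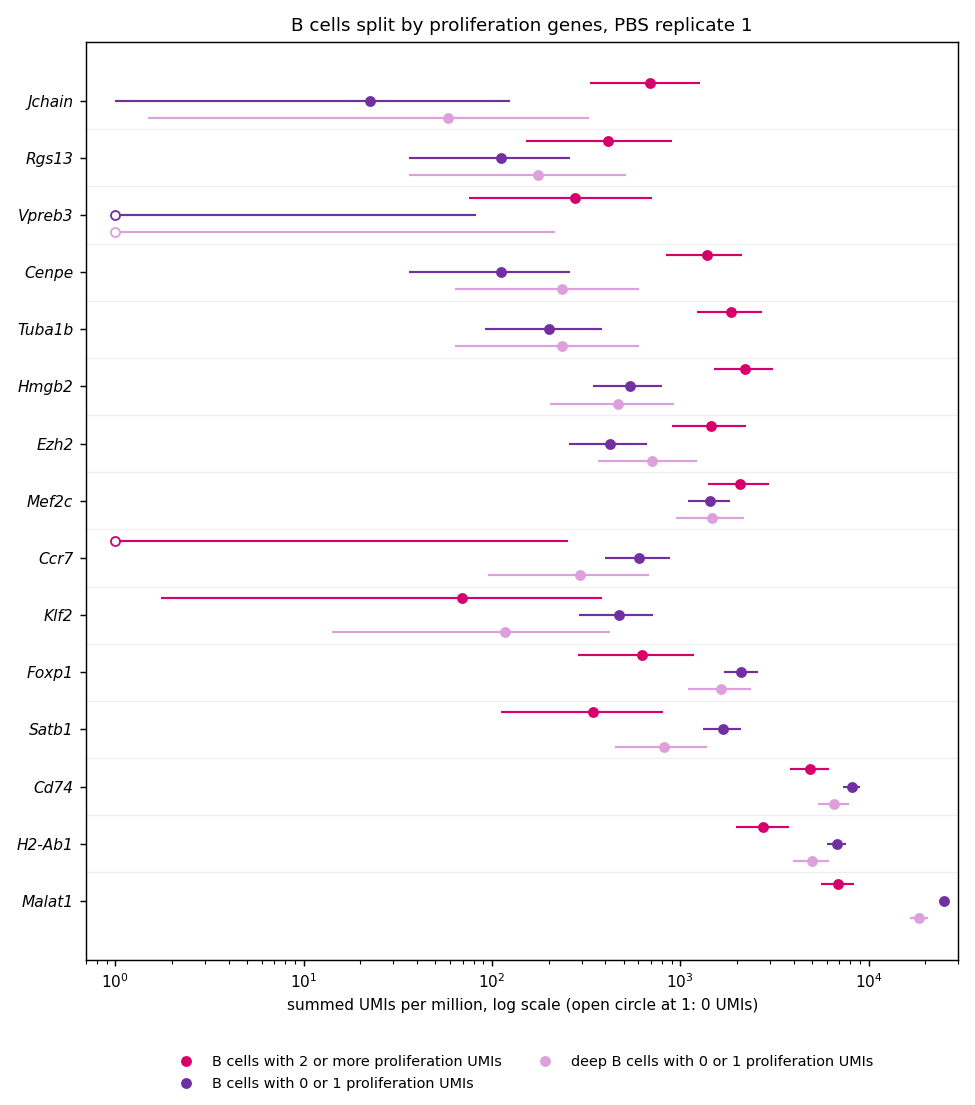
Summed UMIs in CPM (log scale) of 15 genes in B cells of PBS replicate 1 with 2 or more proliferation UMIs (12 cells), in the other 139 and in the 22 of those with 500 or more UMIs; lines are exact Poisson 95% intervals and open circles mark 0 UMIs. Cenpe and Tuba1b lie higher and Malat1 lower in the 12 cells than in both other groups, while the intervals of Rgs13 overlap.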

How the data were processed

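Per the submitters' processing notes, the authors aligned reads with STAR 2.7.2b to mm10, and their deposited UMI counts per gene and barcode were used unchanged. No label or header names the counter, the annotation, how strand was used or how barcodes were picked. The gene and barcode names are other text columns as deposited. Each matrix lists 5000 barcodes and 27998 genes, and 65 repeated symbols were dropped, which left 27933 genes. The 6 libraries total between 678337 and 2207534 UMIs. The members, gene lists and comparisons were chosen with earlier results of these data known. Python 3.11.15, NumPy 2.4.6 and SciPy 1.17.1 were used, and the ratio step was run on simulated counts. A call past the fold is a size and not a test. Ratios of summed UMIs, each scaled to the class total, carry exact conditional intervals at 95%, with no p-value, because nearly all the cells come from 1 library and cells are not replicates. Genes were compared with at least 20 UMIs over both classes. The text names all rule genes. It also names genes from the 20 highest ratios over T cells with at least 30 UMIs in B cells. Others come from the 10 lowest with at least 30 UMIs in T cells, or from the 4 members of each list with most UMIs in B cells. Not every gene of these groups is named, and no rank decided which ones are. Other genes in the text were chosen after their values were seen. A few genes of the lists are not reported here, and the list counts leave them out. Doublets were not called, and the rule's limits on other lineages stand in for that. Across libraries, B cell shares were compared by a two-sided exact permutation test. Promoters came from RefSeq (GRCm38.p6) and gene positions from GENCODE (GRCm38).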

Additional observations from a re-analysis of the deposited data

How the results depend on the processing

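The B cell share difference between FVIO-MHT and PBS tumours kept its direction under every alternative tried. All but the 1 without PBS replicate 1 kept the library that held 151 of the 153 B cells. That library sets the direction, so its being kept says nothing about the treatment. It was -2.31 points with a minimum of 200 genes, -0.699 with 3 or more summed UMIs and -1.75 without the limits on other lineages, and from -2.61 to -0.0522 when each library was left out. The replicate block, which flips signs within replicate numbers that nothing in the labels ties to shared animals, left the difference at -1.73 points with an exact permutation p of 0.5, where 0.25 is the smallest possible. The counts of genes at least 2-fold higher (80) and lower (58) in B cells than in T cells moved with the comparator and the scale. With T cells taken at 1 Cd3 UMI they were 135 and 149 of 1024 genes, with median-of-ratios scaling 138 and 29, and with 50 or more UMIs 24 and 9 of 187. With 3 or more summed UMIs 24 genes were lower. With no minimum 2738 genes were lower, which the floor of 3 counts produces in classes of unequal depth. Alternatives chosen after seeing the data gave 794 and 508 of 5899 genes against other barcodes in place of T cells, and 76 and 46 of 557 without the 17 B cells that held S100a8 or S100a9 UMIs. Against other barcodes 5 named genes reversed on the log2 scale: S100a9 (-2.57), Tmsb4x (0.15), Eef1a1 (0.38), Rps14 (0.26) and Actb (0.22). Of the 20 genes with the highest ratios over T cells, 5 no longer reached 2-fold with T cells at 1 Cd3 UMI, and 9 did not against other barcodes. In the comparison by proliferation UMIs, 34 genes were higher and 25 lower of 234 among deep cells only, and 61 were lower without the deepest cell. Cells at 1 library's depth limit all of these results: 54 of 151 B cells held under 200 UMIs.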
